A study of Mus musculus with 12 samples.

Results

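The 45 genes described here were chosen for a pattern of levels in pools labelled as mouse embryos. The level was higher when Scl was lost and about the same when Lyl1 alone was lost. It was also about the same in the double knockout as in the Scl knockout. Levels are CPM, read counts divided by the size of the library, scaled between libraries with TMM factors, which correct each library total for genes that take an unequal share of it. The rule kept genes with an Scl knockout (KO) mean of at least 5 CPM, an Scl KO/wild type ratio of at least 2, a Lyl1 KO/wild type ratio between 0.67 and 1.5, and a double KO/Scl KO ratio between 0.67 and 1.5. Of 15399 genes tested, 9845 reached the level, 169 of these also reached the ratio in Scl KO, 129 of those also stayed within the Lyl1 band, and 45 met the last criterion. Of the other 84 genes, 62 lay above the double KO/Scl KO band and 22 below it. The members were thus chosen by the group means of all 4 genotypes, and their levels, ratios and calls below are a description; nothing is read from how many of them differ between the genotypes.

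By their labels, the libraries come from pooled embryos of embryonic day 9.5. They form 4 groups of 3: wild type, Lyl1 KO, Scl KO and the double knockout of both genes, written DKO below. Wording such as libraries without Scl, or groups that lack it, refers to the labelled genotype and not to a measured absence of the RNA. Each pool is 1 library. The sources used here do not give the strain, the number of embryos in a pool or the structure of the KO alleles. The labels call the libraries biological replicates without saying that they come from separate litters, so all spreads are those between these samples.

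Scl, whose gene symbol is Tal1, and Lyl1 encode closely related basic helix-loop-helix transcription factors. Each pairs with an E protein such as the products of Tcf3 or Tcf12 and binds short DNA elements called E-boxes, often next to a GATA site and together with Lmo2 and Ldb1. Scl is needed for the first blood cells of the embryo, and mice that lack it die in mid-gestation without them. The same complex can raise some genes and hold down others, in part through the co-repressor Cbfa2t3.

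Upstream sequences of 4 members are shown as examples: the gene with the highest ratio, and 3 genes that differ in the E-box letters they carry. Each is the run of 250 bases before the annotated start, read 5′ to 3′ on the strand of the gene, from RefSeq on GRCm38.p6. Capitals mark E-box letters, which are CAGCTG and the close forms CAGATG and, with a G, CAGGTG. They would also mark GATA letters, either AGATAA or its close form TGATAA, which are in none of the 4 windows, and both strands were read. The windows lie at chr8:70892758-70893007 on the minus strand (Slc5a5), chr1:74194632-74194881 on the minus strand (Cxcr1), chr8:95017442-95017691 on the plus strand (Adgrg3) and chr12:83987611-83987860 on the plus strand (Acot2). None of these windows overlaps an annotated exon.
Slc5a5: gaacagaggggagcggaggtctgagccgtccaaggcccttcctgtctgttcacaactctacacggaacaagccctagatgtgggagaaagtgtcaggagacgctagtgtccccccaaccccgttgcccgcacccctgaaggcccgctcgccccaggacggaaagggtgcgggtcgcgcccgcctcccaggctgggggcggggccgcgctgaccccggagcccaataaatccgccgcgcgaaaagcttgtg
Cxcr1: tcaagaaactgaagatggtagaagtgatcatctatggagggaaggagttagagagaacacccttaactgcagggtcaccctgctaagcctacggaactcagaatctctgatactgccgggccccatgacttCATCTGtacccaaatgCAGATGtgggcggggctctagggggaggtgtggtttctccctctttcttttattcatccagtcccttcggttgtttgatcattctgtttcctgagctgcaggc
Adgrg3: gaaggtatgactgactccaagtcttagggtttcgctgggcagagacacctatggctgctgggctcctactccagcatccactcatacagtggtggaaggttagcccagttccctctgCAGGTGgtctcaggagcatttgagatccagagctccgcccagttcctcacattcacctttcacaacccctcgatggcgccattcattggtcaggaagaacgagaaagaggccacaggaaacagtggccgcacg
Acot2: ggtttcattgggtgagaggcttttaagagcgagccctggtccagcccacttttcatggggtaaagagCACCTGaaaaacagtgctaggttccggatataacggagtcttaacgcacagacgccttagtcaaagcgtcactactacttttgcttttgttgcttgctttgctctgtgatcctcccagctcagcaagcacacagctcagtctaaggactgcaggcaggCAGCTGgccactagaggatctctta

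The Slc5a5 window, upstream of the gene with the highest ratio, holds none of these letters, so it has no capitals. The Cxcr1 window holds CAGATG at 2 places, 119 and 103 bases before the start, 1 on each strand. Adgrg3 carries CAGGTG 133 bases before its start, and Acot2 carries CAGCTG at 25 and CAGGTG at 183 bases. A match of letters is a description of the sequence and says nothing of binding.

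RefSeq windows were found for 29 of the 45 members (38 windows, since some genes have several starts) and for 10631 of the genes tested. CAGCTG was present upstream of 8 matched members (27.6%, against 14.1% of all matched genes): Acot2, Agtrap, Atp2a1, C5ar1, Pak6, Parm1, Trim26 and Vldlr. CAGATG was present in 4 (13.8% against 12%) and CAGGTG in 6 (20.7% against 17.9%). For GATA letters, AGATAA was present in 2 members, Mettl27 and P2ry14 (6.9% against 7.38%), and TGATAA in 1, Nmur1 (3.45% against 5.05%). The joined element of the E-box letters CTG and the letters GATA, which the Scl complex is known to bind, was in no matched member at a spacing of 8 bases, against 1.9% of all genes, and at a spacing of 7 also in none, against 1.73%. Other letters searched on both strands were AGGAAG of ETS factors (12 members, 41.4% against 32.8%), TGTGGT of RUNX factors (6, 20.7% against 13.4%), TGGGAA of Rbpj (7, 24.1% against 23.8%) and TGACNNNGC of the antioxidant element (3, 10.3% against 14%). The cyclic AMP element TGACGTCA was in 3 members, Creb5, Dusp8 and Trim26 (10.3% against 2.96%). The GATA letters end the joined form, so these searches overlap. The median GC content was 60.4% in members' windows and 59.2% in all windows, and the median number of CpG was 11 against 15. These shares rest on few members and were not tested.

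Total counts ran from 24324685 in DKO 2 to 29212443 in Lyl1 KO 2. Tal1 was at 19.2% of its wild-type mean in Scl KO and 16.2% in DKO, and Lyl1 at 48.5% in Lyl1 KO and 46.5% in DKO. Summed megakaryocyte and platelet markers (20 genes) ran from 87910 to 101300 CPM in wild type, 94710 to 108900 in Lyl1 KO, 56310 to 78490 in Scl KO and 21830 to 41620 in DKO. Primitive red cell markers (16 genes) summed to 974 to 1041, 1577 to 2071, 636 to 1175 and 81.9 to 392 CPM in the same order. Endothelial markers (16 genes) summed to 1312 to 1487, 1508 to 1733, 810 to 991 and 508.5 to 667 CPM. The heart markers Nkx2-5, Gata4, Myl7, Myh6 and Nppa were at 0 in every library, although the labels name embryos. The trophoblast marker sum was higher in Scl KO and higher again in DKO, through 1 tested gene, Peg10, with Prl3d1, Tpbpa, Synb, Cdx2 and Elf5 at 0. Peg10 is no member, since its DKO/Scl KO ratio of 2.20 is above the band. The sum ran from 58.0 to 89.6 CPM in wild type, 49.3 to 85.0 in Lyl1 KO, 359 to 385 in Scl KO and 672 to 986 in DKO. The neural progenitor sum ran from 3.83 to 5.37, 0.891 to 4.67, 11.5 to 24.9 and 24.8 to 86.5 CPM in the same order, also through 1 tested gene, Nes, with 7 of its 12 genes at 0. The part of other cell types in the members' levels was not tested. In pooled RNA, a gain of cells of a type and more RNA per cell cannot be told apart.

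Over the 45 genes, the Scl KO/wild type ratio ran from 2.01 to 23.2 with a median of 2.74, and the DKO/wild type ratio from 1.73 to 18.5 with a median of 3.02. The Lyl1 KO/wild type ratio lay between 0.681 and 1.44 with a median of 1.03, and 29 members were within 20% of wild type there. The median level was 14.7 CPM in wild type, 15.4 in Lyl1 KO, 42.7 in Scl KO and 45.6 in DKO, and the members' summed level was 1329, 1445, 3634 and 3798 CPM. In all 45, the 3 Scl KO libraries lay above the 3 wild-type libraries, a separation present in 11.2% of all genes tested. In 38 members, each of the 6 libraries without Scl lay above each of the 6 with it (5.13% of all genes). The exceptions to the full separation were Nmur1, Corin, Dusp8, Nexmif, Atp2a1, C5ar1 and Nfkbiz. Values below are in CPM and list replicates 1, 2 and 3 of a group in that order. Means are given with the SD (n = 3), and where no group is named beside them they stand in the order wild type, Lyl1 KO, Scl KO and DKO.

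**Figure D1:**
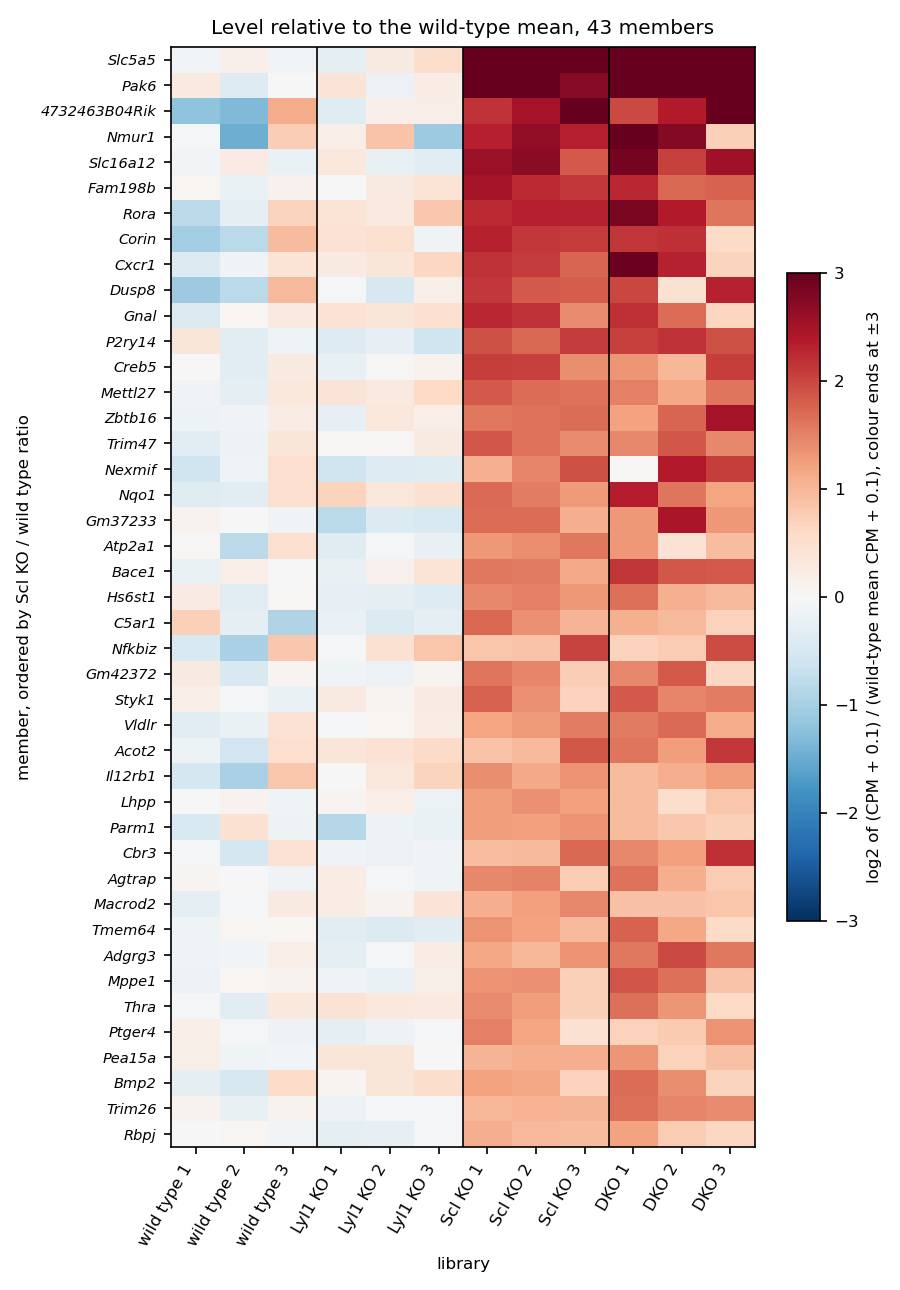
Level of 43 of the 45 genes (rows, ordered by the Scl KO/wild type ratio) in each of the 12 libraries (columns), as log2 of (CPM + 0.1) over (wild-type mean + 0.1); colours end at ±3. The 3 Scl KO and 3 DKO columns are above the wild-type mean for nearly every gene, and the wild-type and Lyl1 KO columns are close to it, with wild type 3 often the highest of its group.

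edgeR's quasi-likelihood test called 39 members higher in Scl KO than in wild type at an adjusted p under 0.05, where 2.29% of all genes were called higher. Not called were Nmur1, Dusp8, Nexmif, Nfkbiz, Il12rb1 and Bmp2, and in each of these wild type 3 was the highest wild-type library. Without wild type 2 the test called 26 members, and without wild type 3 it called 42. The 13 calls lost without wild type 2 were those of 4732463B04Rik, Corin, Cxcr1, Nqo1, Gm37233, Atp2a1, C5ar1, Gm42372, Acot2, Cbr3, Mppe1, Thra and Ptger4. The other 26 were kept whichever library was left out. In DKO against wild type 44 members were called higher, all but Nfkbiz (16.4% of all genes were called higher). The median log2 change over members was 1.45 in Scl KO against wild type and 1.59 in DKO against wild type, and over all genes tested 0.00 and 0.04. Both comparisons share the wild-type libraries, and the rule fixed the direction of the first and, through its last criterion, that of the second.

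**Figure D2:**
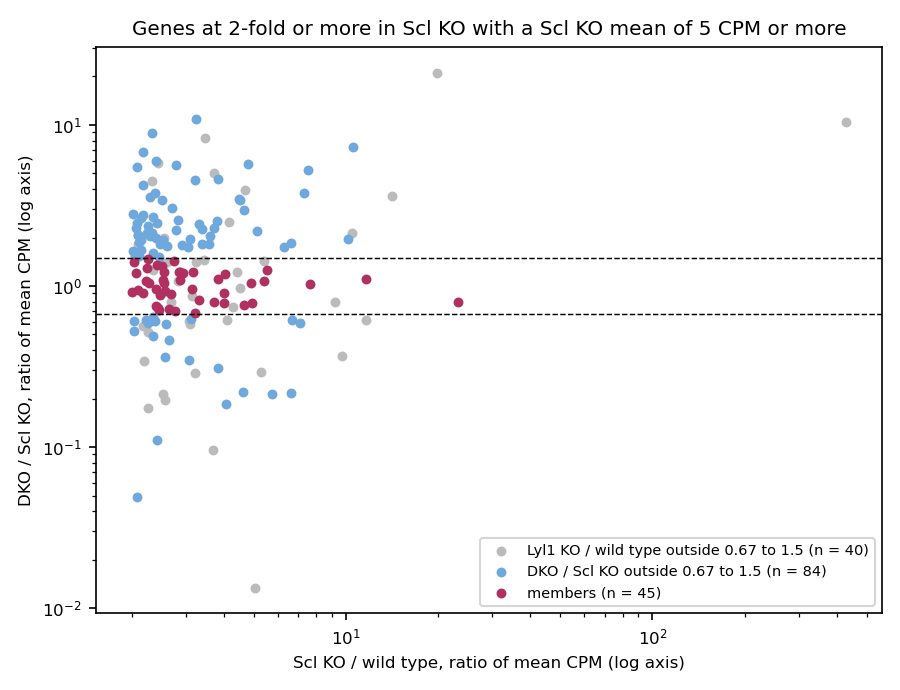
Scl KO/wild type ratio of mean CPM (horizontal, log axis) against the DKO/Scl KO ratio (vertical, log axis) for the 169 genes at 5 CPM or more in Scl KO and at least 2-fold over wild type; dashed lines mark 0.67 and 1.5, and 40 of these genes left the Lyl1 KO band. The 45 members fill the strip between the lines, and of the genes within the Lyl1 KO band 62 lie above it and 22 below.

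Slc5a5, which encodes the sodium/iodide symporter of the thyroid, had the highest ratio. The gene (ENSMUSG00000000792, chromosome 8, 70882889 to 70892757, GRCm38) was measured at 0.791, 0.959 and 0.802 in wild type and 0.689, 1.06 and 1.28 in Lyl1 KO. Levels in Scl KO were 21.7, 22.2 and 15.3, and in DKO 20.5, 17.4 and 9.33. All libraries without Scl were above all libraries with it, and replicate 3 was the lowest in both groups that lack Scl. The Scl KO/wild type ratio was 23.2, against 1.18 for Lyl1 KO/wild type and 0.798 for DKO/Scl KO. Among the 17 tested genes of a list of plasma membrane ion and iodide transporters, Slc5a5 was among those called higher in Scl KO, and Atp1b1 was called lower.

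Pak6, a serine/threonine kinase of the p21-activated family, followed. It was at 2.08, 1.26 and 1.71 in wild type, 2.23, 1.47 and 2.00 in Lyl1 KO, 24.2, 22.9 and 11.8 in Scl KO and 33.9, 14.5 and 16.5 in DKO. The groups with and without Scl did not overlap, and DKO 1 was above the other libraries of its group by a wide margin. Slc16a12, a member of the monocarboxylate transporter family, stood at 7.49, 9.37 and 6.82 in wild type and 9.88, 6.78 and 6.25 in Lyl1 KO, and at 47.8, 51.8 and 28.6 in Scl KO and 58.3, 32.9 and 46.7 in DKO. Its lowest library without Scl, Scl KO 3 at 28.6 CPM, was far above the highest with Scl at 9.88 CPM. Fam198b, which encodes a Golgi protein also called Gask1b, was at 22.3, 18.7 and 23.8 in wild type and 21.5, 26 and 28.9 in Lyl1 KO, against 123, 102 and 93.8 in Scl KO and 104, 71.5 and 74.3 in DKO. It combined a high ratio (4.93) with close replicates, at a within-group coefficient of variation of 16.1% pooled over the 4 groups.

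One group of members encodes receptors or a G protein. Nmur1 encodes a receptor for the peptide neuromedin U. Its wild-type levels were 6.95, 2.57 and 12.2, its Lyl1 KO levels 8.34, 13.1 and 3.36, its Scl KO levels 36.9, 46.5 and 36.9 and its DKO levels 90.3, 49.2 and 11.9. The 3 Scl KO libraries were above all libraries with Scl, but DKO 3 was within their range, so the DKO mean of 50.4 ± 39.2 (SD) rests on DKO 1 and 2. Cxcr1, a chemokine receptor best known from neutrophils, was at 31.7, 39 and 56.1 in wild type, 51.3, 54.5 and 65.5 in Lyl1 KO, 189, 181 and 142 in Scl KO and 326, 211 and 67.5 in DKO. Here DKO 3 was only just above Lyl1 KO 3, at 67.5 against 65.5 CPM, while DKO 1 was the highest of all 12. C5ar1, the receptor of the complement fragment C5a, was at 44, 22.1 and 14.2 in wild type and 23.2, 19.8 and 21.7 in Lyl1 KO. It was at 88.9, 69.7 and 54.6 in Scl KO and 56.5, 52.6 and 43.5 in DKO, so that DKO 3 was just below wild type 1, the one high wild-type library. The summed level of 12 neutrophil markers, none of them at 0, was 335 to 699 CPM in wild type, 355 to 712 in Lyl1 KO, 263 to 445 in Scl KO and 451 to 1120.0 in DKO. That of 14 macrophage markers was 4575 to 7579, 5549 to 8586, 3971 to 5536 and 3605 to 4397 CPM. The Scl KO range of either sum reached no higher than the wild-type range, and no gene of either list was called there. In DKO the neutrophil sum reached above its wild-type range, and the macrophage sum stayed below its own. The part of such cells in the levels of Cxcr1 and C5ar1 was not tested.

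P2ry14, the receptor for UDP-glucose, was much steadier. It was at 5.79, 3.57 and 4.05 in wild type, 3.40, 3.77 and 2.94 in Lyl1 KO, 16.9, 14.9 and 19.3 in Scl KO and 18.8, 20.5 and 17.1 in DKO. Its lowest library without Scl was at 14.9 CPM and its highest with Scl at 5.79 CPM. Adgrg3 (GPR97), an adhesion receptor of white blood cells, was at 88.8, 91.7 and 112 in wild type, 80.6, 93.4 and 115 in Lyl1 KO, 216, 195 and 247 in Scl KO and 295, 386 and 294 in DKO. All 3 DKO libraries were above all 3 Scl KO libraries, and its DKO/Scl KO ratio of 1.48 is the highest that the rule let in. Ptger4, the prostaglandin E2 receptor EP4, had group means of 10.8 ± 1.48, 9.68 ± 0.797, 23.6 ± 8.20 and 21.4 ± 5.61 in wild type, Lyl1 KO, Scl KO and DKO (SD, n = 3).

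Gnal, the stimulatory G protein subunit first found in olfactory neurons, was at 23.4, 33.3 and 38.9 in wild type and 43.1, 41.1 and 44.7 in Lyl1 KO, against 154, 143 and 84.8 in Scl KO and 146, 102 and 50 in DKO. It was the only member with all 3 Lyl1 KO libraries above all 3 wild-type ones, a separation present in 7.7% of all genes. Il12rb1, a subunit of the receptors for interleukins 12 and 23, was at 9.91, 7.23 and 25.5 in wild type, 14.1, 18.1 and 22.8 in Lyl1 KO, 37.8, 31.2 and 36.3 in Scl KO and 27.8, 30.2 and 34 in DKO. Wild type 3 was close to the libraries that lack Scl, and the other wild-type libraries were far below them. Vldlr, the very low density lipoprotein receptor that also binds reelin, was at 138, 152 and 237 in wild type, 170.1, 182 and 207 in Lyl1 KO, 399, 428 and 511 in Scl KO and 516, 570.3 and 378 in DKO. No library without Scl was below 378 CPM, and none with Scl was above 237 CPM.

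**Figure D3:**
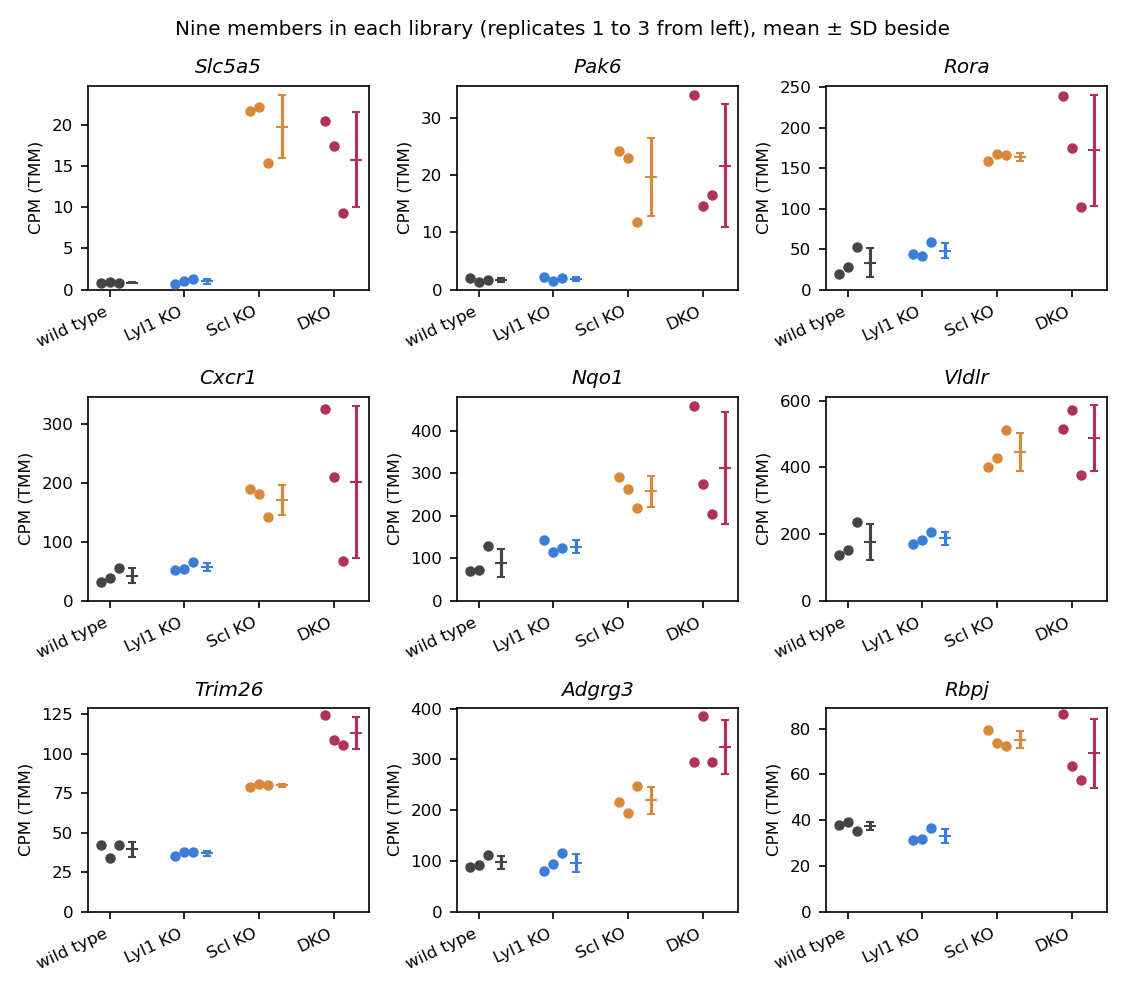
CPM of 9 members in each library (points, replicates 1 to 3 from left in each group) with the group mean ± SD beside them, on linear axes from 0. The groups without Scl lie above the groups with it in each panel. In CPM the DKO points of Cxcr1 and Nqo1 spread widest, though axes differ between panels. The DKO points of Trim26 and Adgrg3 lie above the Scl KO points.

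Another group acts in the nucleus as transcription regulators or beside them. Rora, the orphan nuclear receptor ROR alpha, was at 19.5, 28 and 53 in wild type, 44.6, 41.4 and 58.3 in Lyl1 KO, 159, 168 and 166 in Scl KO and 239, 175 and 102 in DKO. The Scl KO libraries were close together, whereas both the wild-type and the DKO libraries spread over more than 2-fold. Its Lyl1 KO/wild type ratio of 1.44 is the highest among the members. Thra, the thyroid hormone receptor alpha, was at 22.8, 18.9 and 29.4 in wild type, 31.8, 29.7 and 29.2 in Lyl1 KO, 63.2, 56.5 and 38.9 in Scl KO and 74.9, 59.1 and 35.9 in DKO. Replicate 3 was again the lowest in both groups without Scl and the highest in wild type. Zbtb16 (PLZF), a zinc finger repressor, was at 2.75, 2.83 and 3.61 in wild type, 2.55, 3.88 and 3.53 in Lyl1 KO, 9.32, 9.74 and 10.1 in Scl KO and 7.23, 10.6 and 17.8 in DKO. Its replicate 3 was the highest in wild type, Scl KO and DKO. Creb5, a basic leucine zipper factor that binds cyclic AMP elements, had means of 8.35 ± 1.76 in wild type, 8.23 ± 1.02 in Lyl1 KO, 31 ± 7.54 in Scl KO and 24.6 ± 9.93 in DKO (SD). The TGACGTCA letters of that element are in the Creb5 upstream window that begins at 53287053 on chromosome 6, and not in the one at 53573124. Binding there was not tested.

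Rbpj, the DNA-binding protein through which Notch receptors act, was at 37.9, 39.1 and 35.4 in wild type and 31.2, 31.7 and 36.5 in Lyl1 KO. It was at 79.5, 73.5 and 72.4 in Scl KO and 86.2, 63.8 and 57.5 in DKO, with no overlap between libraries with and without Scl. Its ratio of 2.01 is the lowest that met the rule. Of 17 tested genes of the Notch pathway list, Rbpj was the 1 gene called higher in Scl KO, and the ligand Dll1 was the 1 called lower. The list's median log2 change was -0.36, against 0.00 over all genes. Of 19 tested genes of the list of Scl complex and Scl-bound blood factors, none is a member: Lmo2 (log2 change 0.86 ± 0.11, SE) and Ssbp2 (0.62 ± 0.12) were called higher in Scl KO by edgeR's test, and Tal1, Gata2 and Cbfa2t3 lower. Nfkbiz, an inducible nuclear cofactor of NF-κB, was at 13.4, 9.37 and 32.4 in wild type, 17.7, 25.2 and 32.9 in Lyl1 KO, 32.7, 33.3 and 75.3 in Scl KO and 29.7, 31 and 71.7 in DKO. Replicate 3 was the highest of each of these 4 groups, and Lyl1 KO 3 and wild type 3 were at the level of replicates 1 and 2 without Scl. Nexmif, an X-linked nuclear protein of neurons, was low throughout, with means of 2.55 ± 1.03, 1.85 ± 0.162, 7.52 ± 2.24 and 9.11 ± 5.77 (SD).

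Other members act in signalling between or within cells. Bmp2, a secreted bone morphogenetic protein, was at 22.5, 19.4 and 40 in wild type, 28.9, 35 and 39.5 in Lyl1 KO, 63.2, 61 and 44.5 in Scl KO and 87.4, 72.4 and 43.6 in DKO. Replicates 1 and 2 were far apart between wild type and Scl KO, but wild type 3 and Scl KO 3 were close. Bmp2 is the only member among the 19 tested genes of the TGF-beta and BMP pathway list. None of that list was called higher in Scl KO, and the latent TGF-beta binding protein Ltbp2 was called lower. Bmp2 is also 1 of 8 decidua markers, whose sum was 107 to 133 CPM in wild type, 140.3 to 182 in Lyl1 KO, 173 to 196 in Scl KO and 175 to 244 in DKO, with the defining gene Prl8a2 at 0. Of the 4 decidua markers tested, Pgr was the 1 called higher in Scl KO, and none was called lower. Its Scl KO/wild type ratio was 3.44, and it is no member since its Lyl1 KO/wild type ratio was 2.01. Whether other cells account for that sum was not tested.

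Pea15a, a small death effector domain protein that binds ERK, was at 149, 121 and 125 in wild type, 170.0, 168 and 133 in Lyl1 KO, 268, 281 and 282 in Scl KO and 333, 212 and 244 in DKO. Its Scl KO libraries were among the closest of any member. Dusp8, a phosphatase of stress-activated MAP kinases, was at 0.708, 0.872 and 3.25 in wild type, 1.54, 1.13 and 1.83 in Lyl1 KO, 7.39, 5.99 and 5.88 in Scl KO and 6.73, 2.26 and 8.33 in DKO. DKO 2 was below wild type 3, and the other libraries without Scl were above it. Styk1, a kinase-like membrane protein, had means of 17.9 ± 2.46 in wild type, 20.7 ± 1.43 in Lyl1 KO, 45.6 ± 16 in Scl KO and 55.5 ± 7.81 in DKO (SD). Corin, the protease that cuts the natriuretic peptide precursor, was at 1.67, 1.96 and 6.85 in wild type, 4.78, 4.93 and 3.23 in Lyl1 KO, 17.8, 15.6 and 15.3 in Scl KO and 15.7, 16.3 and 5.24 in DKO. DKO 3 stood below wild type 3 and far from the other 5 libraries without Scl. Parm1, a mucin-like membrane protein, had means of 14.7 ± 4.91, 11.4 ± 2.85, 35.9 ± 1.54 and 26.2 ± 2.08, and all 3 of its DKO libraries were below all 3 Scl KO libraries.

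Enzymes of redox and lipid metabolism form another group. Nqo1, a quinone reductase and a well-known target of Nrf2, was at 69.6, 71.8 and 128 in wild type, 143, 113 and 124 in Lyl1 KO, 291, 262 and 218 in Scl KO and 459, 273 and 204 in DKO. Wild type 3 and the 3 Lyl1 KO libraries were well above wild type 1 and 2, but no library with Scl exceeded 143 CPM and none without it was under 204 CPM. Per kilobase of exon, Nqo1 had the highest Scl KO level of the 45, at 166 CPM per kb, ahead of Cxcr1 at 114 and Agtrap at 104, and Nexmif had the lowest at 0.652. Cbr3, a carbonyl reductase, was at 3.25, 2.31 and 4.63 in wild type, 3.08, 2.98 and 3.15 in Lyl1 KO, 6.50, 6.81 and 11.4 in Scl KO and 9.38, 8.17 and 15.9 in DKO, with replicate 3 the highest of each group. Acot2, a mitochondrial acyl-CoA thioesterase, was at 3.87, 2.83 and 6.16 in wild type, 5.55, 5.80 and 6.42 in Lyl1 KO, 7.89, 8.53 and 15.8 in Scl KO and 13.4, 10.3 and 19 in DKO, also with replicate 3 the highest of each group.

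Hs6st1, which adds sulfate to heparan sulfate chains, had means of 19 ± 3.82, 15.4 ± 0.879, 51.1 ± 3.46 and 45.6 ± 12.3 (SD) in wild type, Lyl1 KO, Scl KO and DKO. The DKO libraries of 2 other enzymes were all below their Scl KO libraries. Lhpp, a phosphatase, was at 7.95, 8.54 and 7.22 in wild type, 8.43, 9.04 and 6.98 in Lyl1 KO, 19, 20.5 and 18.6 in Scl KO and 15.4, 11.5 and 14.1 in DKO. Macrod2, which removes ADP-ribose from proteins, was at 9.83, 11.7 and 14.7 in wild type, 14.1, 13 and 15.7 in Lyl1 KO, 25.7, 28.2 and 32.9 in Scl KO and 22.1, 22.1 and 21.5 in DKO. Bace1, the protease that cuts the amyloid precursor protein, went the other way, at 27.5, 27 and 20 in Scl KO and 40.7, 33.3 and 32.9 in DKO against 9.07 and 9.93 CPM on average in wild type and Lyl1 KO. Its DKO libraries were all above its Scl KO libraries.

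Among pump and membrane proteins, Agtrap, which binds the type 1 angiotensin receptor, was at 195, 187 and 170.4 in wild type, 216, 176 and 168 in Lyl1 KO, 502, 513 and 313 in Scl KO and 569.9, 395 and 314 in DKO. The groups with Scl were close together, and replicate 3 was the lowest in both groups without it. Tmem64, a membrane protein, had means of 31.8 ± 2.31, 24.9 ± 1.03, 72.3 ± 9.59 and 75.7 ± 30.6 (SD), and it was with Gm37233 1 of 2 members whose 3 Lyl1 KO libraries were all below wild type (8.18% of all genes). Atp2a1, the calcium pump of fast muscle, was low, with means of 2.69 ± 1.13, 2.31 ± 0.248, 7.44 ± 0.757 and 5.20 ± 1.56.

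Trim26 and Trim47 belong to the tripartite motif family of ubiquitin ligases. Trim26 was at 42.2, 34 and 42.1 in wild type, 35.2, 37.7 and 37.7 in Lyl1 KO, 79.1, 80.9 and 80.1 in Scl KO and 124, 109 and 106 in DKO. Its groups formed separate tiers, with DKO above Scl KO and both above the rest, and its pooled coefficient of variation of 7.71% was the smallest among the members. Trim47 was at 15.2, 17.1 and 24.5 in wild type, 19.4, 19.4 and 22.7 in Lyl1 KO, 68.7, 58.9 and 50.5 in Scl KO and 51.7, 68.7 and 51.4 in DKO. Its DKO and Scl KO libraries overlapped. Mettl27, a methyltransferase-like protein, had means of 10.7 ± 2.35, 14.4 ± 1.66, 35.5 ± 2.60 and 29.2 ± 4.72, with all DKO libraries below all Scl KO libraries. Other members are Mppe1, a metallophosphoesterase described with its neighbour below, and 3 genes with clone or predicted names. Of these, 4732463B04Rik is described with its neighbours, Gm37233 had means of 8.16 ± 0.589, 5.56 ± 0.854, 23.3 ± 5.03 and 28.4 ± 14.2, and Gm42372 had means of 2.91 ± 0.742, 2.77 ± 0.296, 7.41 ± 2.22 and 7.74 ± 3.06. Libraries with and without Scl did not overlap for any of the 3.

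Within the limits that the rule set, DKO and Scl KO still differed for some members. The DKO/Scl KO ratio ran from 0.68 to 1.48 with a median of 1.05, and 21 members were within 20%. There were 3 members called by edgeR's test, where 19.1% of all genes were called in that comparison: Adgrg3 (log2 change 0.56 ± 0.16, SE) and Trim26 (0.50 ± 0.10) higher and Lhpp (-0.50 ± 0.15) lower in DKO. Without Scl KO 1, Scl KO 2 or DKO 2 the test called 1 of the 45. The rule capped this ratio, so larger differences could not be among the members. By libraries, Bace1, Adgrg3 and Trim26 had 3 DKO libraries above 3 Scl KO libraries (16.5% of all genes), and 6 members had them all below (16.9%), among them Mettl27, Atp2a1, Lhpp, Parm1 and Macrod2. These ratios depend on the scaling. TMM factors were 0.894 to 0.957 in wild type and 1.14 to 1.30 in DKO, and with library totals alone the DKO/Scl KO ratio of all genes shifted by 0.30 (log2, median). On that scale 35 members had a DKO/Scl KO ratio over 1, against 24 with TMM, the members' median was 1.27, and 10 members left the band at its upper end. The Scl KO/wild type ratio then shifted by 0.11 and the DKO/wild type ratio by 0.41, with all 45 members over 1 in both.

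Without Lyl1 alone the members were near their wild-type means, as the rule required. For some of them this rested on wild type 3. Without that library, Rora, Corin, Cxcr1, Gnal, Nqo1, Dusp8, Nfkbiz, Acot2, Il12rb1 and Bmp2, among others, passed the Lyl1 KO/wild type limit of 1.5. In each of those named, all 3 Lyl1 KO libraries lay above wild type 1 and 2. C5ar1 and Gm37233 then fell below the limit of 0.67. No member was called in Lyl1 KO against wild type, where 0.0714% of all genes were, and 1 member passed an unadjusted p of 0.05. The interaction, which compares the change with Lyl1 loss between libraries without and with Scl, was called for 1 member, Trim26 (9.38% of all genes), and for none without wild type 1, Lyl1 KO 1, Scl KO 1 or Scl KO 2. In DKO against Lyl1 KO, 43 members were called higher, all but Nfkbiz and Il12rb1 (17.4% of all genes), and 43 had no overlap between the 3 DKO and the 3 Lyl1 KO libraries (25.8% of all genes). For DKO against wild type that number was 38 (21.4%).

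Within groups, the members' spread was wider at the median than that of the genes that reached the level set by the rule, a description with no test. The median coefficient of variation was 22.5% in wild type, 13.1% in Lyl1 KO, 14.7% in Scl KO and 31.1% in DKO, against 11.7%, 7.95%, 11.3% and 14% for the 9845 genes of at least 5 CPM in Scl KO. Least variable after Trim26 were Lhpp (11%, pooled over groups), Rbpj (12.3%) and Macrod2 (12.9%), and most variable 4732463B04Rik (70.2%) and Nmur1 (59.5%). The spread had a pattern, which was not tested. Each library entered a group mean that the rule used, so ranks within groups are not independent of the choice of members. Without wild type 3 the rule kept 29 of the 45. Wild type 3 was the highest of its group for 28 members (38.1% of all genes), Scl KO 3 the lowest of its group for 29 (44.4%), DKO 1 the highest for 26 (36.5%) and DKO 3 the lowest for 26 (42%). For 12 members, replicate 3 was the highest in wild type and the lowest in both Scl KO and DKO, which holds for 26.7% of the members and 5.19% of all genes. Among them were Nmur1, Corin, Cxcr1, Gnal, Trim47, Nqo1, Tmem64, Mppe1, Thra and Bmp2. For 5 others, 4732463B04Rik, Zbtb16, Nfkbiz, Acot2 and Cbr3, it was the highest in all 3 of these groups (11.1% against 14.7% of all genes).

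Over all genes, the second principal component (13.2% of the variance, after 44.8% in the first) set the wild-type, Scl KO and DKO libraries numbered 1 and 2 apart from those numbered 3 and from all Lyl1 KO libraries. The labels give no batch for this split. Among replicates 1 and 2 the Scl KO/wild type ratio of the members had a median of 3.11 and was at least 2 in 44, all but Rbpj at 1.99. Between the single libraries numbered 3 the median was 2.25, the ratio was over 1 in all 45 and at least 2 in 33. The other 12 ran from Bmp2 at 1.11, Thra at 1.32 and Il12rb1 at 1.42 to Trim26 at 1.90. Slc5a5 had the highest ratio on both sides, at 25.1 and 19.1. The DKO/Scl KO ratio stayed in the band for 41 members on the first side and 29 on the other. Since no Lyl1 KO library is on the first side, the Lyl1 KO/wild type ratio has no value there, and genotype and side cannot be told apart for wild type 1 and 2 against Lyl1 KO.

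**Figure D4:**
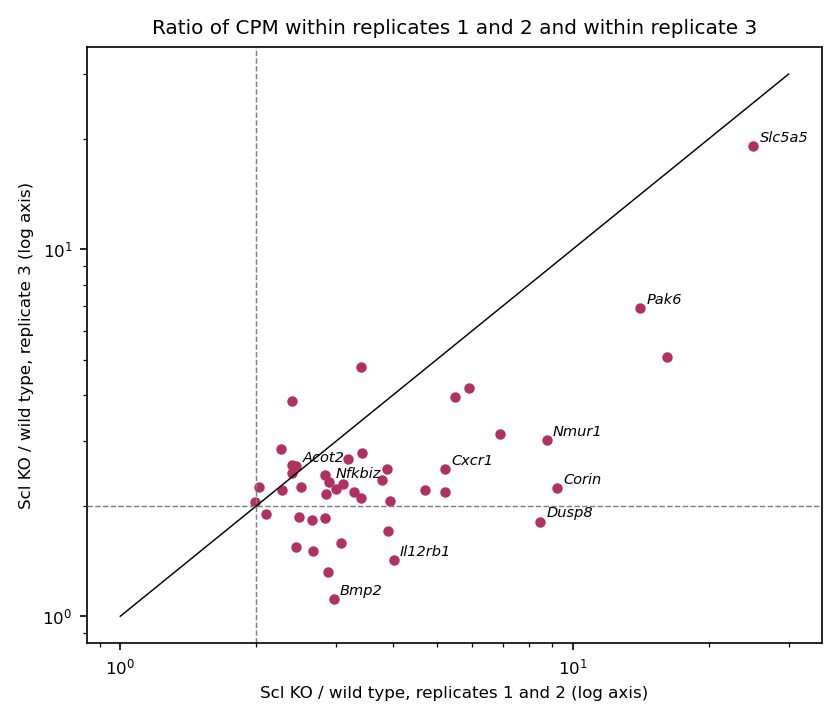
Scl KO/wild type ratio of each of the 45 members among replicates 1 and 2 (horizontal, log axis) and between those numbered 3 (vertical, log axis, 1 library against 1); the solid line marks equal ratios and dashed lines a ratio of 2. All points lie above 1 on both axes, and 12 lie below 2 on the vertical axis.

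The members were spread over 18 chromosomes, with the most on chromosome 7 (6 genes, 13.3% against 7.8% of all genes tested). None was within 10 Mb of Tal1 or of Lyl1, where 1.14% and 0.955% of all genes lie. In all, 6 members lie within 100 kb of another. Slc5a5 and Il12rb1 are 61.5 kb apart on chromosome 8. On chromosome 12, 4732463B04Rik (chromosome 12, 84039469 to 84053807, minus strand) is 45.6 kb from Acot2 and overlaps Acot4 and the start of Acot3 on the opposite strand. It was at 0.291, 0.262 and 1.86 in wild type, 0.608, 0.904 and 0.936 in Lyl1 KO, 3.95, 4.99 and 9.45 in Scl KO and 3.45, 4.62 and 10.9 in DKO, with no overlap between libraries with and without Scl. The counting used strand, which keeps the reads of overlapping genes on opposite strands apart. Acot3 had a Scl KO/wild type ratio of 9.23 and was called higher, and it is no member because its Lyl1 KO mean (3.45 CPM) was over 1.5 times its wild-type mean (2.01 CPM). These acyl-CoA thioesterase genes are close copies of each other. Reads that map to several places were not counted, so the levels of these genes are uncertain. On chromosome 18, Gnal and Mppe1 run towards each other and overlap at their ends. Mppe1, an enzyme that acts on membrane lipid anchors, was at 21.2, 24.8 and 26 in wild type, 22.5, 21.1 and 27.3 in Lyl1 KO, 60.8, 61.8 and 39.2 in Scl KO and 89.5, 75.6 and 43.2 in DKO. Of 23 other tested genes within 100 kb of these 6, Acot3 was called higher in Scl KO and 1, Kcnn1 beside Slc5a5, lower.

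The threshold of 2 cut through close values. Just inside it lay Rbpj at 2.01, Trim26 at 2.03 and Bmp2 at 2.06, and just outside, with every other criterion met, Plekhg3 and Rab11fip1 at 1.98 and Cd34 at 1.97. Cd34, a surface protein of blood progenitors and endothelium, had means of 119.8 CPM in wild type, 110.1 in Lyl1 KO, 236 in Scl KO and 225 in DKO. When each library was left out in turn, 18 genes met the rule every time, among them Slc5a5, Pak6, Slc16a12, Fam198b, P2ry14, Zbtb16, Trim47, Hs6st1, Gm42372, Styk1, Vldlr, Parm1, Agtrap, Macrod2, Tmem64, Thra and Pea15a. The other 27 failed it without some library. Fewest of the 45 members met it without wild type 3, where 29 remained.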

How the data were processed

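RNA from 12 pools, labelled as mouse embryos of embryonic day 9.5, was measured by strand-specific sequencing of polyadenylated RNA. The authors deposited raw read counts per gene (49671 genes, of which 26757 had a count). STAR 2.5.2b aligned the reads to GRCm38 and featureCounts of Subread 1.5.2 counted them, per the submitters' processing notes. Per the file headers, reverse-strand reads were counted on Ensembl release 87 models, without switching on reads that map to several places.

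edgeR 4.0.16 in R 4.3.3 kept 15399 genes (filterByExpr, by group, with a minimum count of 10 and a minimum total of 15) and scaled libraries with TMM. A count of 0 allows up to 3 counts, or 0.0936 to 0.131 CPM, for counting error only. One quasi-likelihood fit (robust) of all 12 libraries with group as its term gave each comparison, with Benjamini-Hochberg adjustment over all genes and calls under 0.05. The fit was also run on simulated counts. These held no split of libraries like that on the second principal component, so they cannot show how the fit handles it. For the interaction, the change from wild type to Lyl1 KO was subtracted from that from Scl KO to DKO. The members, 11 programme lists and 13 marker lists were chosen with earlier results of these data known.

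The naming rule took members by the 15 largest ratios, the 15 highest Scl KO levels, list membership, closeness to another member (100 kb), shared family, the 10 smallest coefficients of variation, and the edge of the ratio threshold. It gave 34 names, and the other members were grouped by known function after their values were seen, without a test. Ensembl identifiers gave symbols for 49326 genes. Upstream windows are RefSeq's (GRCm38.p6), matched by symbol. Replicate numbers were treated as names, since same-numbered libraries did not all deviate together, though those numbered 3 of wild type, Scl KO and DKO did. No 2 libraries of a group agreed within counting noise. Alternatives were DESeq2 size factors and the Wald test of DESeq2 1.42.0, voom of limma 3.58.1, other filters, a replicate block, each library left out, only the groups compared, and other settings of the membership rule. The values of 2 members are not reported here.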

Additional observations from a re-analysis of the deposited data

Results flagged for a closer look

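Trim26 was the only member called in the interaction, the difference in the change with Lyl1 loss between libraries without and with Scl. By edgeR's quasi-likelihood test this difference was 0.5946 on the log2 scale (SE 0.14, adjusted p = 0.024), where 9.38% of all genes were called. Its means were 39.4 CPM in wild type and 36.9 in Lyl1 KO, and 80.0 in Scl KO and 112.9 in DKO, and all 3 DKO libraries lay above all 3 Scl KO libraries. The rule that chose the members used these group means, so the value is a description. The call was lost when wild type 1, Lyl1 KO 1, Scl KO 1 or Scl KO 2 was left out. Other settings called more members in the interaction: 3 with DESeq2's Wald test, 3 with a replicate block and 4 without wild type 3.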

How the results depend on the processing

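The direction in Scl KO against wild type was kept for each of the 45 members in the 20 other fits (795 values on the same side of the threshold, 25 newly past it, 80 no longer past it). Of the 39 calls, 13 were lost when some single library was left out, all 13 of them without wild type 2 and 11 each without wild type 1 or Scl KO 2. Fits of the 6 libraries compared lost 7 calls, and voom and the fit with no low-count filter 4 each. All genes called numbered 11 in Lyl1 KO, 774 in Scl KO and 5312 in DKO against wild type, 2947 in DKO against Scl KO, 5422 in DKO against Lyl1 KO and 1444 for the interaction. DESeq2's Wald test called 103, 1329 and 2262 genes for Lyl1 KO, Scl KO and the interaction, with 6 members in DKO against Scl KO and 3 in the interaction. With a term for the side on component 2, an alternative chosen after seeing the data, Scl KO against wild type gave 1631 genes and the interaction 3199, with 7 members called in DKO against Scl KO and 2 in the interaction. Fits of only the 6 libraries compared called 29 genes for Lyl1 KO and wild type and 1742 for DKO and Scl KO; they cannot be made for the interaction. The cause of these differences was not tested.

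With a replicate block, 1226 genes were called in Scl KO against wild type and 3 members in the interaction, and Corin and Cxcr1 lost their call. Same-numbered libraries correlated in their deviations at -0.0432 to 0.441, over 0.1 in 10 of 18 pairs. Those numbered 3 deviated together in wild type and Scl KO (0.361), wild type and DKO (0.236) and Scl KO and DKO (0.441). No label says that the numbers pair libraries, and they were not taken to, but these values do not exclude a shared source of variation.

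Leaving out each library gave 5 to 41 genes called in Lyl1 KO against wild type (most without wild type 3), 388 to 1063 in Scl KO against wild type (fewest without wild type 2), 1645 to 3222 in DKO against Scl KO (fewest without Scl KO 1) and 671 to 1925 for the interaction (fewest without Lyl1 KO 1). Members called were 26 to 42 in Scl KO against wild type (26 without wild type 2), 1 to 4 in DKO against Scl KO and 0 to 4 in the interaction. The rule itself found 39 to 58 genes and kept 29 to 44 of the members. A ratio of at least 1.5 gave 186 genes and of at least 3 gave 17, all 17 of them members. Group medians kept 32 members and library totals without TMM 35. Levels of few CPM, as for Dusp8 or Nexmif, rest on fewer reads and limit what their spread can show.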
